A study of Mus musculus with 7 samples.

Results

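Atf4, Ddit3, Trib3, Asns, Chac1, Psat1, Phgdh, Xbp1, Hspa5 and Herpud1 are genes of the amino acid response and of the unfolded protein response, the programmes with which a cell answers a shortage of amino acids or a load of unfolded protein in the endoplasmic reticulum (ER). They were taken from the mouse expression arrays by symbol, from probe sets (groups of probes for a transcript) that name exactly 1 gene. The 10 genes, of 12393 on the arrays, had 23 such probe sets, and each gene was represented by its brightest probe set. All 10 lay above a filter on dim genes and are among the 9243 genes tested.

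Stress kinases that sense missing amino acids or unfolded protein phosphorylate the translation factor eIF2alpha, which slows protein synthesis in general but favours translation of Atf4 mRNA. The ATF4 protein then switches on genes for amino acid synthesis and transport and, under lasting stress, for cell death. In parallel, the ER sensors IRE1 and ATF6 act through XBP1 and through cleaved ATF6 to raise ER chaperones such as Hspa5. In gliomas both programmes are known from poorly perfused and nutrient-starved parts of the tumour.

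The cells came from gliomas raised by injecting the brain of newborn mice, on postnatal days 1 to 3, with RCAS-PDGFB-GFP, a vector for platelet-derived growth factor B and green fluorescent protein that enters only cells with the tv-A receptor, here driven by the Nestin promoter. All mice lacked p16, an inhibitor of the cell cycle, and had a mixed C57/BL6 and FVB/N background. The groups differed in Ptprd, a receptor-type tyrosine phosphatase: 2 arrays held Ptprd+/+ (wild type), 2 Ptprd+/- (heterozygous) and 3 Ptprd-/- (null) tumour cells. Tumours were collected when mice had symptoms or after 12 weeks, so age can differ between arrays, and living GFP+ cells were sorted after papain digestion. The labels call the arrays biological replicates without saying whether each is the tumour of 1 mouse.

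Both heterozygous arrays differed widely from the others. They lay at 51.3 and 35 on the first principal component (50.3% of the variance), and the other arrays between -25.2 and -7.68. Heterozygous 1 and null 1 carried both Xist and Y-linked transcripts, while each of the other arrays carried one kind. Ptprd itself was lower in heterozygous than in wild-type cells by a log2 difference of -1.37 (limma adjusted p = 0.0311), and the null difference was also -1.37 (adjusted p = 0.882). The heterozygous call of Ptprd ended in 8 of 16 alternative settings. These were the fit with replicate number as a block (adjusted p = 0.0535), an ordinary linear model (0.131), and the fits without wild type 1, wild type 2 or heterozygous 1 (0.118 to 0.162), heterozygous 2 (0.0708), null 1 (0.0522) or both heterozygous 1 and null 1 (0.226). The position of its probes relative to the targeted part of the gene was not analysed here, so this does not check the labels. Of 16 microglia and macrophage markers tested (of 20 listed), 12 rose in heterozygous against wild-type cells, against 4.2% of all genes, although the sort kept GFP+ cells. In null against wild-type cells 0 of them rose, as did 0% of all genes. The summed linear level of this list was 893 to 1220 in wild type, 2580 to 3180 in heterozygous and 1010 to 1540 in null arrays. Itgam and Mrc1 lay below the 30th percentile of every array. Markers of the oligodendrocyte progenitor state summed to 54300 to 54400, 33000 to 41200 and 48700 to 51500 in the same order. Of 6 astrocyte markers tested, 3 rose in heterozygous against wild-type cells (Gfap by 1.49, Sox9 by 1.34 and Aldh1l1 by 1.46), and 1, S100b, fell by -0.76. Of 4 neuron markers tested, 2 fell (Gad1 by -1.24 and Snap25 by -0.84), where 5.95% of all genes did. In null against wild-type cells 0 markers of the astrocyte and neuron lists were called, as were 0% of all genes. The summed level of the astrocyte list was 4750 to 4970 in wild type, 4050 to 4440 in heterozygous and 4630 to 5680 in null arrays. Its brightest genes, S100b and Slc1a3, weigh most in this sum. The mean log2 level of the list went the other way, with 7.42 to 7.74, 8.31 to 8.50 and 7.34 to 7.79. Aqp4 differed by 1.61 between heterozygous and wild-type cells (limma adjusted p = 0.0799). The summed level of the neuron list was 2420 to 2590, 1220 to 1710 and 2360 to 2610 in the same order. The part of these shifts in any difference below was not tested. In sorted bulk RNA, fewer cells of a type and less RNA per cell cannot be told apart.

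None of the 10 genes passed the threshold, a limma p adjusted over all genes tested of under 0.05, in any pair of genotypes, and none did with an unmoderated model. In heterozygous against wild-type cells 0 of 10 were called, where 10.1% of all genes were (4.2% higher and 5.95% lower). Their median log2 difference was 0.21, against -0.04 over all genes, and 9 of 10 lay above 0, against 44.9% of all genes. The arrays of the 2 genotypes did not overlap for 5 of 10, against 61.3% of all genes, and 2 of 10 had an unadjusted p under 0.05, against 29.9%. In null against wild-type cells 0 of 10 were called, as were 0% of all genes (0% higher and 0% lower). Here the median was 0.16 against -0.00, and 10 of 10 lay above 0, against 49.8% of all genes. This shared direction depended on the setting. Without wild type 2, Xbp1 (-0.17), Hspa5 (-0.15) and Herpud1 (-0.07) lay below 0, and with averaged probe sets Atf4 did (-0.13). Of the 10, 4 did not overlap against 21.7%, and 2 had an unadjusted p under 0.05 against 5.14%. In null against heterozygous cells 0 of 10 were called, against 8.96% of all genes (5% higher and 3.96% lower). The median was -0.04 against 0.04, and 4 of 10 lay above 0, against 57% of all genes. There was 1 not overlapping against 43.7% and 1 with an unadjusted p under 0.05 against 28.5%. In the F test over the 3 genotypes 0 of 10 passed, against 5.65% of all genes. Both comparisons with wild type share the same wild-type arrays.

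**Figure D1:**
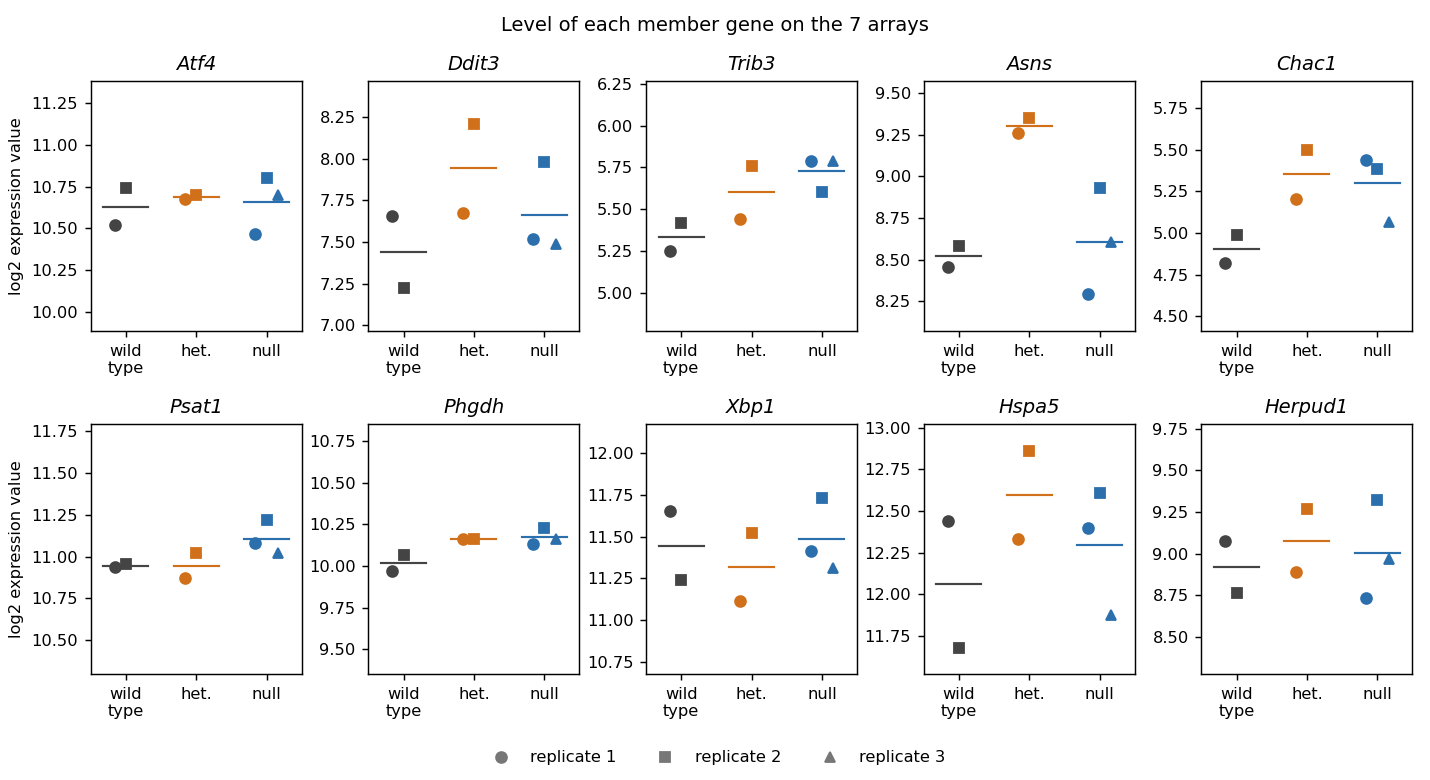
Log2 expression value of each of the 10 genes (vertical axis, the same span of 1.5 in every panel) on each array, by Ptprd genotype (horizontal axis), with a symbol for each replicate number and a line at the genotype's mean. Asns is highest on both heterozygous arrays, and Hspa5 runs from 11.68 to 12.86 with wide gaps inside each genotype.

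Atf4, the transcription factor of the amino acid response, was at 10.52 and 10.74 (log2) on the wild-type arrays, 10.68 and 10.70 on the heterozygous and 10.47, 10.80 and 10.70 on the null arrays. The heterozygous arrays lay between the wild-type ones, and null 1 was lowest. Atf4 RNA differed by 0.06 ± 0.14 (log2, SE, 95% interval -0.28 to 0.40, limma adjusted p = 0.822) between heterozygous and wild-type cells and by 0.03 between null and wild-type cells. With the mean of its probe sets these values were -0.16 and -0.13. A second probe set of Atf4 pointed down (-0.48 ± 0.17, adjusted p = 0.130), with both heterozygous arrays, at 9.54 and 9.65, below both wild-type arrays, at 10.02 and 10.13. The remaining probe set was dim (4.13 to 4.46) and below the filter. The level of Atf4 mRNA does not measure ATF4 protein, which is set largely by translation.

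Ddit3 encodes CHOP, a transcription factor that ATF4 induces and that promotes death under lasting ER stress. It was at 7.66 and 7.22 in wild type, 7.68 and 8.21 in heterozygous and 7.52, 7.98 and 7.49 in null arrays. Heterozygous 1 lay only just above wild type 1. The difference of 0.50 ± 0.25 between heterozygous and wild-type cells (SE, interval -0.09 to 1.10, adjusted p = 0.231) ran from 0.24 without heterozygous 2 to 0.77 without heterozygous 1.

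Trib3, a pseudokinase that ATF4 and CHOP induce and that dampens their activity, was dim throughout. It was at 5.25 and 5.42 in wild type, 5.44 and 5.76 in heterozygous and 5.79, 5.60 and 5.79 in null arrays, so both wild-type arrays were below all Ptprd-deficient arrays. The log2 difference was 0.27 ± 0.15 for heterozygous (SE, adjusted p = 0.262) and 0.39 ± 0.13 for null against wild-type cells (limma adjusted p = 0.882). Its other probe set, below the filter, gave 0.84 and -0.05, so the pair of probe sets did not give the same order of genotypes. The heterozygous difference was 0.11 without heterozygous 2, 0.43 without heterozygous 1 and 0.55 with the mean of the probe sets, and the null difference 0.17 with that mean.

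Chac1, which degrades glutathione and is induced through ATF4 and CHOP, showed the same separation. It was at 4.82 and 4.99 in wild type, 5.21 and 5.50 in heterozygous and 5.44, 5.39 and 5.07 in null arrays. Wild type 1 was under the 30th percentile of its array (4.84), so the gene was dim. The difference was 0.45 ± 0.17 for heterozygous (SE, interval 0.05 to 0.84, adjusted p = 0.129) and 0.39 ± 0.15 for null against wild-type cells (adjusted p = 0.882). Null and heterozygous cells differed by -0.06 ± 0.15. Without an array the heterozygous difference ran from 0.30 (without heterozygous 2) to 0.60 (without heterozygous 1).

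Asns, the enzyme that makes asparagine, came nearest to the threshold of the 10. It was at 8.46 and 8.58 in wild type, 9.26 and 9.35 in heterozygous and 8.30, 8.93 and 8.60 in null arrays. Both heterozygous arrays were above all 5 others, and null 2 was the highest of the rest. The means were 8.52 ± 0.09 (SD, n = 2), 9.30 ± 0.06 (n = 2) and 8.61 ± 0.32 (n = 3). Heterozygous minus wild-type cells gave 0.78 ± 0.20 (SE, interval 0.32 to 1.25), which is 1.72-fold, with an adjusted p of 0.0507. Null minus heterozygous cells gave -0.69 ± 0.18 (interval -1.12 to -0.27, adjusted p = 0.0565), and null minus wild-type cells 0.09 ± 0.18, which was -0.07 without null 2. Asns passed the threshold in 6 of 16 alternative settings for heterozygous against wild-type cells, where the difference stayed between 0.71 and 0.84 and the adjusted p between 0.0307 and 0.188. Leaving out null 1 (adjusted p = 0.0347) or null 2 (0.0307) was among the 6, and leaving out either wild-type or either heterozygous array gave 0.130 to 0.188. A second Asns probe set, with each probe set entered in the fit on its own, rose by 0.64 ± 0.14 (adjusted p = 0.0461).

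Psat1 and Phgdh, enzymes of serine synthesis from a glycolytic intermediate, varied little. Phgdh was at 9.97 and 10.07 in wild type, 10.16 and 10.16 in heterozygous and 10.13, 10.23 and 10.16 in null arrays, so all Ptprd-deficient arrays were above both wild-type arrays by a small margin. Its differences were 0.14 ± 0.10 (heterozygous, SE, adjusted p = 0.389) and 0.15 ± 0.09 (null, adjusted p = 0.891), and its other 3 probe sets ran from 0.04 to 0.16 and from 0.10 to 0.24. Psat1 was at 10.94 and 10.95 in wild type, 10.87 and 11.02 in heterozygous and 11.08, 11.22 and 11.02 in null arrays. The null arrays were above the wild-type ones by 0.16 ± 0.11 (adjusted p = 0.894), and heterozygous minus wild type was 0.00 (interval -0.27 to 0.27). The second Psat1 probe set gave -0.19 and -0.02.

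Xbp1, whose mRNA the ER sensor IRE1 splices into the form that encodes the active factor, was at 11.65 and 11.24 in wild type, 11.11 and 11.52 in heterozygous and 11.41, 11.73 and 11.31 in null arrays. Every genotype held a high and a low array, and all groups overlapped. The difference of -0.13 ± 0.22 (heterozygous minus wild type, SE, adjusted p = 0.738) was -0.34 without wild type 2 and 0.08 without wild type 1, and the other 3 probe sets gave 0.18, 0.06 and -0.02. Probe sets for total Xbp1 RNA do not show its splicing.

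Hspa5 encodes BiP, the main ER chaperone and the usual readout of the unfolded protein response. It was at 12.44 and 11.68 in wild type, 12.33 and 12.86 in heterozygous and 12.40, 12.61 and 11.88 in null arrays. Wild type 2 and null 3 were low, and heterozygous 2 was high. The means were 12.06 ± 0.54 (SD, n = 2), 12.60 ± 0.37 (n = 2) and 12.29 ± 0.38 (n = 3). Hspa5 spanned 1.18 over the 7 arrays (2.27-fold), and the gap of 0.76 between the wild-type arrays was wider than the difference of 0.54 ± 0.33 between heterozygous and wild-type cells (SE, interval -0.24 to 1.32, adjusted p = 0.323). That difference was 0.16 without wild type 2 and 0.92 without wild type 1. The null minus wild-type difference was 0.23, with -0.15 without wild type 2 and 0.61 without wild type 1. The second Hspa5 probe set gave 0.55 for heterozygous minus wild-type cells.

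Herpud1, an ER membrane protein of the degradation of misfolded proteins, was at 9.08 and 8.77 in wild type, 8.89 and 9.27 in heterozygous and 8.73, 9.32 and 8.97 in null arrays. The groups overlapped in every pair, and the differences were 0.16 ± 0.22 (heterozygous, adjusted p = 0.684) and 0.09 ± 0.20 (null, adjusted p = 0.961). They ran from -0.03 without heterozygous 2 to 0.35 without heterozygous 1 (heterozygous) and from -0.07 without null 2 to 0.24 without wild type 1 (null). Its second probe set gave -0.15 and -0.02.

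**Figure D2:**
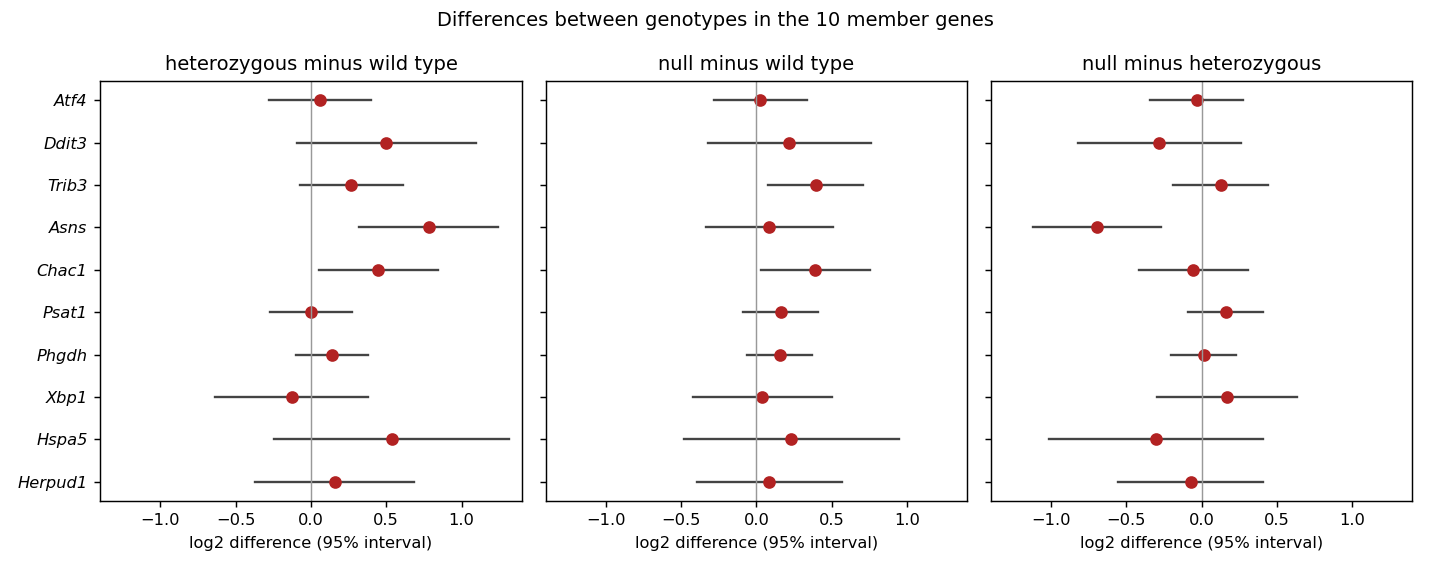
Log2 difference (horizontal axis) of each of the 10 genes in each pair of genotypes, with the 95% interval of the moderated fit. The interval leaves out 0 for Asns and Chac1 in heterozygous minus wild type, for Trib3 and Chac1 in null minus wild type and for Asns in null minus heterozygous cells, before adjustment over all genes.

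Beyond the 10 genes, other known targets of ATF4 and of the amino acid response changed in both directions in heterozygous cells. Of 34 listed, 32 were on the arrays and 29 were tested, of which 5 rose and 2 fell in heterozygous against wild-type cells (24.1% called, against 10.1% of all genes), with a median difference of 0.06. In null against wild-type cells 0 of 29 were called, as were 0% of all genes (2 with an unadjusted p under 0.05, and 0 called with an unmoderated model). In null against heterozygous cells 4 were lower and 2 higher (20.7% called, against 8.96% of all genes, 5% higher and 3.96% lower). The count of rises was 2 without wild type 1, 0 without wild type 2, 2 without heterozygous 1, 3 without heterozygous 2, 4 without null 1, 6 without null 2 and 3 without null 3. With heterozygous 1 and null 1 both left out it was also 0. On the same heterozygous arrays 12 of 16 macrophage and 3 of 6 astrocyte markers were higher, and 1 of 6 astrocyte, 2 of 4 neuron and 4 of 8 oligodendrocyte progenitor markers were lower. Their part in these counts was not tested.

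Nupr1, a small stress-induced nuclear protein, showed the widest difference of that list. It was at 4.43 and 4.31 in wild type, 6.76 and 7.69 in heterozygous and 5.03, 4.59 and 5.13 in null arrays. Both wild-type values lay under the 30th percentile of their arrays, so the size of the rise is uncertain. Nupr1 rose by 2.85 ± 0.31 (log2, SE, adjusted p = 0.0071), or 7.21-fold, in heterozygous against wild-type cells and was lower in null than in heterozygous cells by -2.30 ± 0.28 (adjusted p = 0.00971). Its second probe set gave 3.02 and -2.40. The rise kept its call in 13 of 16 alternatives, and lost it without wild type 2 (adjusted p = 0.0702).

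Atf3, a stress-induced transcription factor that partners with ATF4, was at 4.85 and 4.25 in wild type, 6.39 and 6.0 in heterozygous and 5.03, 5.06 and 5.01 in null arrays. The null arrays were close together, above wild type and below heterozygous. Wild type 2 lay under the 30th percentile of its array (4.82) and wild type 1 just above its own (4.84), so the size of the rise is uncertain. Atf3 rose by 1.65 ± 0.21 in heterozygous against wild-type cells (SE, adjusted p = 0.00962) and was lower in null than in heterozygous cells by -1.16 ± 0.19 (adjusted p = 0.0205). With an ordinary linear model (adjusted p = 0.0742) or these genotypes alone (0.0576) the call of the rise ended. The rise lost its call without wild type 2 (adjusted p = 0.0623) and without heterozygous 1 (0.0600).

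Eif4ebp1, a brake on cap-dependent translation, rose by 1.49 ± 0.28 (adjusted p = 0.0244) and was lower in null than in heterozygous cells by -1.45 ± 0.25 (adjusted p = 0.0235). Of its other probe sets, the second gave 1.33 and the last only 0.35. Slc1a5, a glutamine transporter, rose by 0.80 ± 0.18 (adjusted p = 0.0362), and Sesn2, a stress-induced inhibitor of mTORC1, by 0.79 ± 0.18 (adjusted p = 0.0395). Each of these rises lost its call without wild type 1 or 2 or without heterozygous 1. Their adjusted p reached 0.135 for Eif4ebp1, 0.195 for Slc1a5 and 0.165 for Sesn2 when 1 array was left out, and the Slc1a5 call also ended without heterozygous 2 or null 3. The Sesn2 call ended without any single array except null 2.

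The fallen genes of the list were Slc7a3, a transporter of arginine and lysine, by -1.03 ± 0.20 (adjusted p = 0.0281), and Map1lc3b, a protein of autophagosomes, by -0.71 ± 0.14 (adjusted p = 0.0272). Slc7a3 was at 9.98 and 9.86 in wild type, 8.61 and 9.17 in heterozygous and 9.62, 9.93 and 9.95 in null arrays, and it was higher in null than in heterozygous cells by 0.94 ± 0.19 (adjusted p = 0.0319). Gpt2, a mitochondrial alanine transaminase, was also higher in null than in heterozygous cells, by 0.65 ± 0.15 (adjusted p = 0.0430). For Map1lc3b the other probe sets gave -0.14, -0.57 and -0.04 and its call ended with the mean of its probe sets. The calls of Slc7a3 and Map1lc3b in heterozygous against wild-type cells ended without wild type 1, wild type 2 or heterozygous 1 (adjusted p 0.104 to 0.162).

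In null against heterozygous cells the call of Nupr1 held without each array in turn (adjusted p 0.0145 to 0.0339). The calls of Atf3 and Eif4ebp1 ended without heterozygous 1 (adjusted p = 0.146 and 0.161), null 1 (0.0582 and 0.0685) or null 3 (0.0684 and 0.0664). The call of Sesn2 (-0.87 ± 0.16, adjusted p = 0.0281) ended without either heterozygous array, null 1 or null 3 (up to 0.0893). Those of Slc7a3 and Gpt2 ended without any single array except heterozygous 2 (up to 0.162 and 0.223). The list's count of lower genes there was 1 without heterozygous 1, null 1 or null 3.

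Of 10 tested enzymes of serine, glycine and one-carbon metabolism (16 listed), 0 were called in any pair of genotypes by limma. In heterozygous against wild-type cells 8 of 10 lay above 0 (44.9% of all genes), their median difference was 0.21 (-0.04 over all genes), and 3 had an unadjusted p under 0.05 (29.9%). Shmt2, the mitochondrial serine hydroxymethyltransferase, had the smallest F-test p, with 0.57 ± 0.16 (adjusted p = 0.0690). Of 21 listed cytosolic aminoacyl-tRNA synthetases, a list that includes the tRNA exporter Xpot, 19 were tested. In heterozygous against wild-type cells 1 was called (5.26%, against 10.1% of all genes), with a list median of 0.08. The called gene was Kars, the lysyl-tRNA synthetase, which rose by 0.63 ± 0.16 (adjusted p = 0.0489). The call of Kars held in 6 of 16 alternatives and ended without any single array except null 1 or null 2 (adjusted p up to 0.216).

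The machinery upstream of the 10 genes and the genes of cell death were also mostly below the threshold in heterozygous against wild-type cells. Of 14 tested eIF2alpha kinases, eIF2 subunits and phosphatase genes, 1 fell (7.14% called, against 10.1% of all genes). This was Eif2ak4, which encodes GCN2, the kinase that senses uncharged tRNA, at -0.46 ± 0.11 (adjusted p = 0.0482), a call that ended without any single array (adjusted p 0.0517 to 0.225). Of 11 tested UPR sensors and activating proteases 0 were called (1 at an unadjusted p under 0.05), and Creb3l2, an ER-anchored transcription factor, was nearest with -0.59 ± 0.16 (adjusted p = 0.0618). Of 10 tested genes of cell death after such stress, 1 fell (10% called, against 10.1% of all genes). This was Bcl2, an inhibitor of apoptosis, at -0.59 ± 0.13 (adjusted p = 0.0408). The Bcl2 call ended without any single array except null 2 (adjusted p up to 0.219).

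Among genes that act beside Hspa5 in the ER, single genes passed the threshold. Of 26 ER chaperones and oxidoreductases, 1 rose in heterozygous against wild-type cells (3.85%, against 4.2% of all genes in that direction), and their median was 0.15. This was Sdf2l1, an ER protein that works with the co-chaperones of BiP, at 0.90 ± 0.21 (adjusted p = 0.0421), with 8.48 and 8.32 in wild type, 9.07 and 9.53 in heterozygous and 8.85, 8.72 and 8.36 in null arrays. Its call ended without any single array except null 3 (adjusted p up to 0.211). Of 30 genes of ER translocation, glycosylation and degradation, 1 rose and 1 fell (6.67% called, against 10.1% of all genes). Sec61b, a subunit of the translocation channel, rose by 0.54 ± 0.10 (adjusted p = 0.0228), and Herpud2, a relative of Herpud1, fell by -0.48 ± 0.12 (adjusted p = 0.0480). In null against heterozygous cells 1 of the 30 was called (3.33%, against 8.96% of all genes). This was Stt3a, a subunit of oligosaccharyltransferase, lower in null cells by -0.50 ± 0.12 (adjusted p = 0.0459). The Sec61b call ended without wild type 1, wild type 2 or heterozygous 1 (adjusted p 0.108 to 0.133), and the calls of Herpud2 (0.0543 to 0.204) and Stt3a (0.0642 to 0.138) ended without any single array. In null against wild-type cells 0 genes were called by limma in every list named here, as were 0% of all genes. Each list had 0 to 2 genes at an unadjusted p under 0.05.

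**Figure D3:**
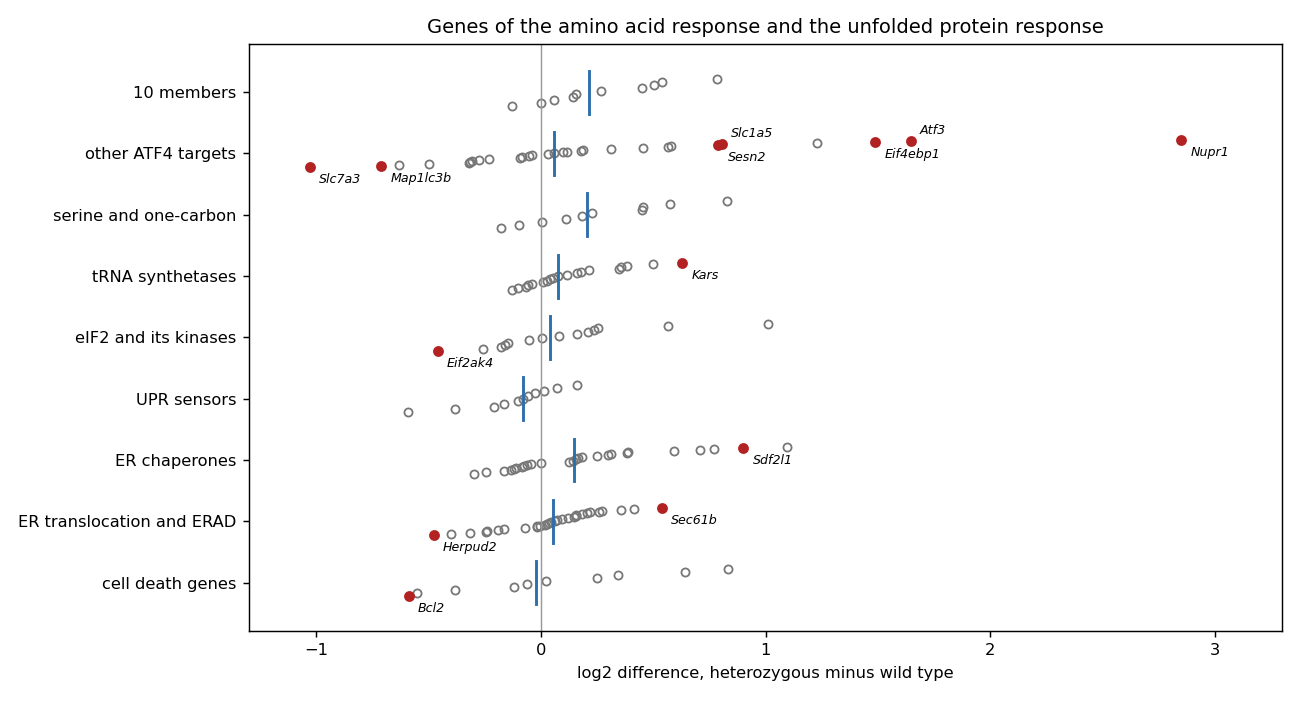
Log2 difference between heterozygous and wild-type cells (horizontal axis) for the 10 genes and for each list of related genes (1 row per list, 1 circle per tested gene, blue bar at the median). Filled and named circles passed the threshold; the widest spread is that of the other ATF4 targets, from -1.03 to 2.85, while the 10 genes run from -0.13 to 0.78.

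Inside each genotype, 4 of the 10 genes differed between arrays in a shared order, which was seen after their values were known. Hspa5, Herpud1, Xbp1 and Ddit3 were each higher in wild type 1 than in wild type 2, higher in heterozygous 2 than in heterozygous 1, and highest in null 2 among the null arrays. These 4 were picked because they show the order, so neither their number nor the positive sign of their medians is a result. Of all genes tested 10.3% show it. The median difference of the 4 genes was 0.42 for wild type 1 minus wild type 2, 0.47 for heterozygous 2 minus heterozygous 1, 0.39 for null 2 minus null 1 and 0.46 for null 2 minus null 3. The other 6 members had medians of -0.14, 0.12, 0.12 and 0.15 in these pairs, and all genes had -0.00, 0.03, 0.02 and -0.01. Atf4 itself differed the other way between the wild-type arrays (-0.22) and by 0.02, 0.33 and 0.10 in the other pairs.

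ER chaperones, which were not used to pick out this order, moved in the same direction in part. Of the 26, 11 showed it (42.3%, against 10.3% of all genes). Among the other lists it was shown by 26.3% of tRNA synthetases, 20% of serine and one-carbon enzymes and 20% of cell death genes. It was shown by 17.2% of other ATF4 targets, 14.3% of eIF2 and kinase genes, 10% of ER translocation and degradation genes and 0% of UPR sensors. The chaperones had median differences of 0.17, 0.25, 0.02 and 0.13 in the pairs given above. In the same order 18, 23, 13 and 17 of 26 lay above 0, against 47%, 55.1%, 52.3% and 44.8% of all genes. Manf, a secreted ER stress protein, gave 0.73, 0.60, 0.09 and 0.50, and Pdia6, a disulphide isomerase, 0.66, 0.66, 0.17 and 0.19. Dnajc3, a co-chaperone of BiP, gave 0.32, 0.50, 0.19 and 0.49. Others on the list went the other way: Fkbp2 gave -0.36, -0.15, -0.34 and -0.23, and Pdia3 -0.22, 0.03, -0.47 and -0.08. By the counts above, the wild-type and heterozygous pairs showed the shift more widely than null 2 against null 1. In null 2 against null 1 the share of chaperones above 0 was 50%, against 52.3% of all genes. In that pair 89.5% of tRNA synthetases and 90% of serine and one-carbon enzymes lay above 0. Nothing in the labels distinguishes wild type 1, heterozygous 2 and null 2 from the other arrays of their genotypes. Over all genes tested, deviations from the genotype mean correlated at 0.414 between wild type 1 and null 2. Those of heterozygous 2 correlated at -0.111 with wild type 1 and -0.193 with null 2. Wild type 1 and null 2 carried Y-linked transcripts without Xist and heterozygous 2 carried Xist alone. The 3' minus 5' difference of the Actb control probe sets, a measure of RNA integrity, was 1.31 against 0.96 in wild type, 1.33 against 1.17 in heterozygous, and 1.05 in null 2 against 1.34 and 1.21 in the other null arrays.

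**Figure D4:**
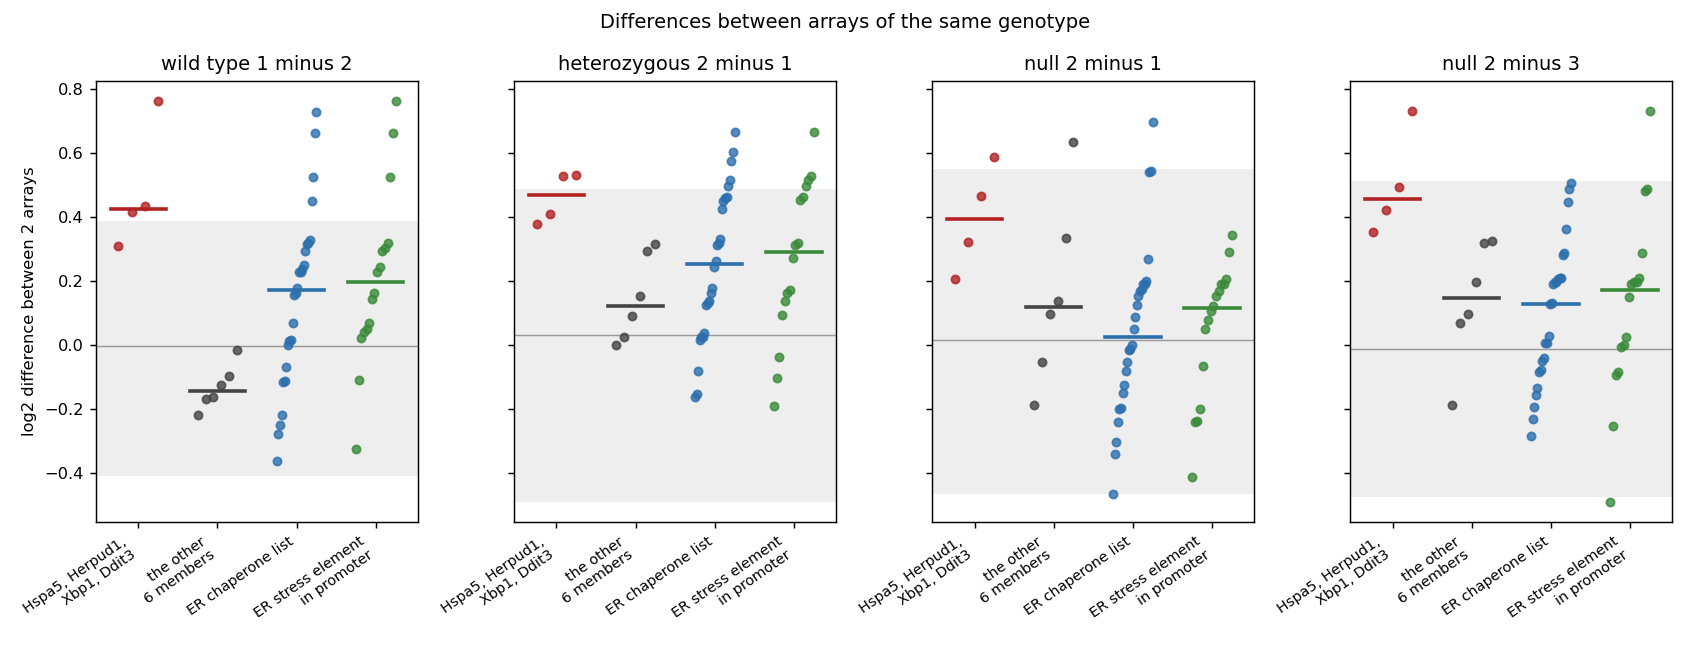
Log2 difference between 2 arrays of the same genotype (vertical axis) for 4 sets of genes (horizontal axis), with a bar at each set's median, a grey line at the median of all genes and a grey band from their 5th to their 95th percentile. Hspa5, Herpud1, Xbp1 and Ddit3 were picked for lying above 0 in all 4 panels, and the ER chaperones, which were not, have medians of 0.17, 0.25, 0.02 and 0.13.

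The promoters of Hspa5 and of 3 chaperones, chosen after their values were seen, are shown because they carry the ER stress response element, the site through which ATF6 acts. The element was searched as CCAAT and CCACG separated by 9 bases of any kind, on both strands, from 250 bases before to 50 after the start of each gene. It was found in 39 of 32851 promoters (0.119%), in that of Hspa5 alone among the 10 genes and in those of 7 of 22 chaperones with a promoter in the table. The sequences are from RefSeq (GRCm38.p6), 5′ to 3′ on the strand of the gene, with 20 bases on each side and the element in capitals. They lie at chr2:34772005-34772063 (Hspa5), chr12:17266471-17266529 (Pdia6), chr14:118937807-118937865 (Dnajc3) and chr15:88819500-88819558 (Creld2), all on the plus strand, and the element starts 65, 98, 105 and 126 bases before the start of the gene.
Hspa5: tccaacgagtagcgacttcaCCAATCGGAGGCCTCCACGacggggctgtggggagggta
Pdia6: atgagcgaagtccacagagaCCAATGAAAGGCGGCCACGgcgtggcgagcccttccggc
Dnajc3: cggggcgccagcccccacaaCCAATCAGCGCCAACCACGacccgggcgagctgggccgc
Creld2: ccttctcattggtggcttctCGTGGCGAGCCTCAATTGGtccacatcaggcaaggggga
Creld2 holds the element on the opposite strand. Of the tested genes 16 held the element, and 15 without Hspa5, which had been used to define the order. These 15 had median differences of 0.16 (wild type 1 minus 2), 0.27 (heterozygous 2 minus 1), 0.11 (null 2 minus 1) and 0.15 (null 2 minus 3), against medians of -0.01, 0.03, 0.02 and -0.01 for tested genes without the element. Of the 15, 13, 12, 10 and 9 lay above 0 in these pairs, against 47%, 55.1%, 52.3% and 44.8% of all genes. In all pairs 6 of the 15 lay above 0, against 10.3% of all genes. Of these 6, Canx, Creld2, Dnajc3, Ero1b and Pdia6 are ER chaperones already counted above, so the 2 counts overlap. Of the 9 that are on a list of related genes, 6 lay above 0 in all pairs, while Calr (-0.24), Derl3 (-0.24) and Hsp90b1 (-0.20) were lower in null 2 than in null 1. The other 6 (Acacb, Adcy3, Alg12, Pan2, Spats2l and Zfp57) had medians of 0.04, 0.03, 0.11 and -0.05, and 0 of them were above 0 in all pairs. A match describes the letters and not the binding of a factor.

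The ATF4 side was searched for TGATGNAA, the core of the amino acid response element, on both strands of the same promoters. It was present in 1304 of 32851 (3.97%), in 4 of the 10 genes (Asns, Chac1, Herpud1 and Trib3) and in 9 of 28 other ATF4 targets with a promoter in the table. Of the 5 targets that rose in heterozygous cells, Nupr1, Atf3 and Sesn2 had a promoter in the table, and 2 of these 3 held the core, Sesn2 having no match in this window. The promoters of Asns, the gene nearest the threshold, of Chac1, Nupr1 and Atf3 are shown, from RefSeq (GRCm38.p6) on the strand of the gene with the core in capitals. They lie at chr6:7693210-7693252 (Asns, minus strand), chr2:119351029-119351076 (Chac1, plus strand), chr7:126625553-126625600 (Nupr1, minus strand) and chr1:191183416-191183463 (Atf3, minus strand).
Asns: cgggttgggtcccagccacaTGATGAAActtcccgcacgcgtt
Chac1: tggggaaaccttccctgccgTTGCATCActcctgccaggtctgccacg
Nupr1: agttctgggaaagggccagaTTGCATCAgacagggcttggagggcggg
Atf3: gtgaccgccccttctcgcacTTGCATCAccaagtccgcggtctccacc
The core starts 23 bases before the start of Asns and reads on the opposite strand in the others, 193 bases before the start of Chac1 and 110 before those of Nupr1 and Atf3. The 198 tested genes with it had a median difference of -0.05 between heterozygous and wild-type cells against -0.03 for genes without it, and 12.1% against 9.94% were called. The core of the UPR element, TGACGTGG, was found in 222 promoters (0.676%) and in 0 of the 10 genes. No match says only that these letters are not in this window.

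The genes whose profiles over the 7 arrays were most like those of Asns and Chac1, the members with the smallest F-test p (0.00894 and 0.0567), were taken by the root mean square difference of log2 profiles after each gene's mean was subtracted. For Asns they were Fbl, a nucleolar methyltransferase of ribosomal RNA (0.0927), Mrps6, a mitochondrial ribosomal protein (0.108), and Kars (0.110), against a median of 0.423 over all genes. For Chac1 they were Agtrap, a protein that binds an angiotensin receptor (0.0685), Ezr, a linker of membrane and cytoskeleton (0.103), and Arhgdib (0.103), against a median of 0.303. Likeness over 7 arrays is a description, and the arrays share their genotype groups.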

How the data were processed

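RNA of sorted glioma cells was measured on 7 Affymetrix mouse arrays (2 wild type, 2 heterozygous, 3 null), with 75 ng of total RNA per sample per the labels' protocols. The values deposited by the authors are log2 expression per probe set. Per the submitters' processing notes they were processed with RMA and Partek 6.6, in no stated order. RMA forces arrays to the same distribution and hides a shift common to all genes. Raw scans were not analysed here. Of 22690 probe sets, 64 were Affymetrix controls and 20380 named 1 gene in the platform annotation. All 10 symbols were found in RefSeq (GRCm38.p6).

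Each gene was represented by its brightest single-gene probe set. Genes whose probe set exceeded its array's 30th percentile in 2 or more samples were tested (9243). With limma 3.58.1 (R 4.3.3), 1 mean per genotype was estimated from the 7 arrays together (4 residual degrees of freedom), and pairs of genotypes were compared with two-sided moderated tests, Benjamini-Hochberg adjustment over all genes tested and a threshold of 0.05. The spread behind the p-values is that between these samples and may be partly technical, and their small number limits precision. Tested on simulated data for heterozygous against wild type with 200 of 9243 genes changed, the fit recovered 7.46% of changes of 0.5 (log2), 68.7% of 1 and 90.9% of 2, and 5.13% of its calls were false. The simulated noise was independent between genes and arrays, and in the data 938 genes were called in this comparison. These rates therefore need not hold for the real arrays.

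The 10 genes, the related lists and the marker lists were chosen with earlier results of these data known. Besides the 10 genes, the text names from each list the genes past the threshold in any pair of genotypes (at most 8 by F-test p) or else the gene of smallest F-test p, and the 3 genes most like each of the 2 members of smallest F-test p. Genes of the pattern inside genotypes and of the promoter searches were named after their values were seen. Alternatives were other filters, averaged probe sets per gene, median centring, a block on replicate number, other variance models, the compared genotypes alone, and each array left out. Every probe set in the fit on its own was added after the data were seen.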

Additional observations from a re-analysis of the deposited data

How the results depend on the processing

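In the simulated data, differences of 0.5 (log2) between heterozygous and wild type mostly went undetected. With 2 or 3 arrays a group, a gene short of the threshold is not shown to be unchanged. For 1280 of 1563 values of single genes under an alternative the direction and the side of the threshold were kept. Most of the 1563 belong to differences not called in the main fit, so this share does not measure how well calls held. The 187 values that lost a call all came from called differences. A further 35 values gained a call, and 61 turned their sign (28 differences, 0 of these values called, smallest limma adjusted p 0.270). Among the 10 genes, the count of rises in heterozygous against wild-type cells was 1 (Asns) in place of 0 with a filter at the 50th percentile, averaged probe sets, median-centred arrays, a trend and robust variance, or every probe set in the fit on its own, and 0 to 1 with an array left out. For null against heterozygous cells the count of lower genes among them was 1 with that filter, centring and the trend, and 0 to 1 with an array left out.

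Over all genes, heterozygous against wild-type cells gave 388 higher and 550 lower genes, which became 109 and 108 with the replicate block, 46 and 51 with an ordinary linear model, 99 and 73 with these genotypes alone, 23 to 345 and 10 to 458 with an array left out, and 0 and 0 without both arrays that carry Xist and Y-linked transcripts. Same-numbered arrays share only a number (correlations of their deviations from -0.414 to 0.111), and the block is not a pairing. Null against wild-type cells gave 1 higher with averaged probe sets, 0 to 1 higher with an array left out, and 1 lower with the ordinary model. Null against heterozygous cells gave 462 higher and 366 lower, which became 6 and 19 with the block, 2 and 0 with the ordinary model, 188 and 167 with these genotypes alone, 24 to 385 and 66 to 387 with an array left out, and 0 and 0 without both arrays.

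The other ATF4 targets called in heterozygous against wild-type cells (5 higher, 2 lower) became 3 higher with a 50th-percentile filter, 3 and 0 with the replicate block, 0 and 0 with the ordinary model, 1 and 0 with these genotypes alone, 0 to 6 and 0 to 3 with an array left out, and 0 and 0 without both arrays. In null against heterozygous cells (2 higher, 4 lower) they became 1 higher without a filter, 4 higher with centring, 0 and 0 with the block and with the ordinary model, 0 higher with these genotypes alone, 0 to 3 and 1 to 5 with an array left out, and 0 and 0 without both arrays. The 1 risen ER chaperone became 0 without a filter, with the block, with the ordinary model, with these genotypes alone and without both arrays, and 0 to 1 with an array left out. The cause was not tested; the ordinary model borrows no spread from other genes, and the fits on fewer arrays have fewer degrees of freedom.

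Heterozygous minus wild-type differences that turned ran with an array left out over -0.050 to 0.17 (Atf4), -0.077 to 0.078 (Psat1), -0.34 to 0.080 (Xbp1) and -0.031 to 0.35 (Herpud1). With averaged probe sets, the turned values were Atf4 -0.16, Psat1 -0.096, Xbp1 0.023. Without both arrays, the turned value was Xbp1 0.076. Null minus wild-type differences that turned ran, with an array left out, over -0.083 to 0.14 (Atf4), -0.072 to 0.24 (Asns), -0.17 to 0.25 (Xbp1), -0.15 to 0.61 (Hspa5), -0.071 to 0.24 (Herpud1), -0.19 to 0.21 (Eif4ebp1), -0.15 to 0.018 (Slc7a3), -0.21 to 0.053 (Sesn2), -0.036 to 0.37 (Slc1a5), -0.085 to 0.12 (Gpt2), -0.023 to 0.19 (Kars), -0.32 to 0.082 (Creb3l2), -0.21 to 0.049 (Stt3a), -0.14 to 0.20 (Fbl) and -0.077 to 0.12 (Mrps6). With averaged probe sets, the turned values were Atf4 -0.13, Fbl -0.024. Without both arrays, the turned values were Slc7a3 0.018, Sesn2 0.0013. With the replicate block, the turned value was Gpt2 -0.026. Null minus heterozygous differences that turned ran, with an array left out, over -0.11 to 0.061 (Atf4), -0.033 to 0.28 (Trib3), -0.20 to 0.091 (Chac1), -0.015 to 0.034 (Phgdh), -0.036 to 0.37 (Xbp1), -0.26 to 0.12 (Herpud1), -0.21 to 0.27 (Ptprd), -0.13 to 0.13 (Agtrap) and -0.23 to 0.067 (Ezr). With averaged probe sets, the turned values were Atf4 0.033, Trib3 -0.38, Herpud1 0.031. Without both arrays, the turned values were Atf4 0.049, Trib3 -0.064, Ptprd -0.13. With the replicate block, the turned values were Chac1 0.060, Ptprd -0.21, Agtrap 0.13. With centring, the turned value was Ptprd -0.0025. The cause of these turns was not tested.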
